A study of Oryza sativa with 60 samples.

Results

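The genes described here are 300 rice genes whose transcripts were high in anthers 2.5 mm long and low in anthers of every shorter length measured. They are 300 of the 35594 genes listed in the expression tables. The anther is the pollen-bearing organ of the flower, and anther length is used in rice to order its development. Transcript levels were measured by poly(A) mRNA sequencing in anthers of 2.5 mm and, against them, in anthers of 0.4, 0.6, 0.8, 1.0, 1.2, 1.4, 1.6, 1.8 and 2.0 mm, with 3 libraries for each length. All plants were untreated wild type of the japonica cultivar Kitaake (labelled Kitaake_WT), grown in a greenhouse with 16 hours of light. Each RNA sample pooled 20 to 30 whole anthers, so pollen, anther wall and any tapetum were measured together. In such bulk samples, fewer cells of a type and less RNA per cell cannot be told apart. The labels give the length of the anthers and no developmental stage, and nothing in them says whether replicates came from separate plants, so p-values measure only the spread between these samples.

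As anthers approach flowering, the tapetum, the inner wall layer that feeds the developing microspores, degenerates, and the pollen grains fill with starch and complete their cell divisions. Mature pollen is known for a transcript population that differs strongly from that of younger anthers. It stores many mRNAs that are used after pollination, when the grain germinates and its tube grows towards the ovule. The tables list genes by Kitaake ID with no name or function, and none of the IDs could be matched to a named gene here. Markers of pollen or tapetum could therefore not be looked up, and the 300 genes are described by their levels and by their places in the list of IDs.

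The members were chosen from the measured values. Transcript levels were in FPKM, fragment counts scaled by transcript length and by the mapped fragments of the library, which the submitters deposited per transcript and which were summed here per gene. For each gene the mean of log2(FPKM + 1) was taken at each of the 10 lengths. The gap of a gene is its mean at 2.5 mm minus its highest mean at any other length, and it had to be larger than the matching gap for any other run of neighbouring lengths. In all, 962 genes had such a gap of at least 1 and a mean of at least 5 FPKM at 2.5 mm, and the 300 with the largest gaps were kept. That they are high at 2.5 mm is therefore how they were picked, and no test is given for it. Because values are on the log2(FPKM + 1) scale, differences of genes with low levels are understated.

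The gaps of the 300 genes ran from 9.59 down to 3.77, with a median of 5.23. For 163 genes the gap was at least 5. The last genes kept, at positions 298 to 300, had gaps of 3.80, 3.79 and 3.77 and means of 47.7, 30.7 and 33.2 FPKM at 2.5 mm. The 3 genes next in order, which were left out, had gaps of 3.77 each and means of 58.9, 21.8 and 24.1 FPKM. The limit of 300 thus falls within a continuous run of values.

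The gene with the largest gap was OsKitaake05g079200.v3.1. It had 3307, 3913 and 545 FPKM in 2.5 mm replicates 1, 2 and 3, against 0.797, 4.31 and 0.636 FPKM in the 2.0 mm libraries. In the 24 libraries of 0.4 to 1.8 mm its lowest value was 0.0877 FPKM, its median 0.353 FPKM and its highest 1.49 FPKM. All 3 libraries of 2.5 mm were above all others, but replicate 3 was far below the other 2.5 mm libraries, and among the shorter anthers 2.0 mm replicate 2 was highest.

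The second largest gap was that of OsKitaake07g094100.v3.1. It had 2109, 2201 and 439 FPKM in 2.5 mm replicates 1, 2 and 3, against 0.489, 5.67 and 0.271 FPKM in the 2.0 mm libraries. In the 24 shorter libraries it had a lowest value of 0.0270 FPKM, a median of 0.192 FPKM and a highest value of 1.15 FPKM. As for the first gene, 2.5 mm replicate 3 was below the other 2.5 mm libraries and 2.0 mm replicate 2 was above the other 2.0 mm libraries.

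The 300 genes made up a large part of the measured mRNA at 2.5 mm. They held 32.4% of all FPKM in 2.5 mm replicate 1, 30.4% in replicate 2 and 8.42% in replicate 3. In the 2.0 mm libraries they held 0.269%, 0.607% and 0.141%, and in the 24 libraries of 0.4 to 1.8 mm between 0.0206% and 0.0465%. Replicate 3 thus lay well apart from replicates 1 and 2, though still above every library of another length, and each 2.0 mm library lay above all 24 libraries of shorter anthers. FPKM are shares of a library, so a rise of these genes lowers the share left for others.

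**Figure D1:**
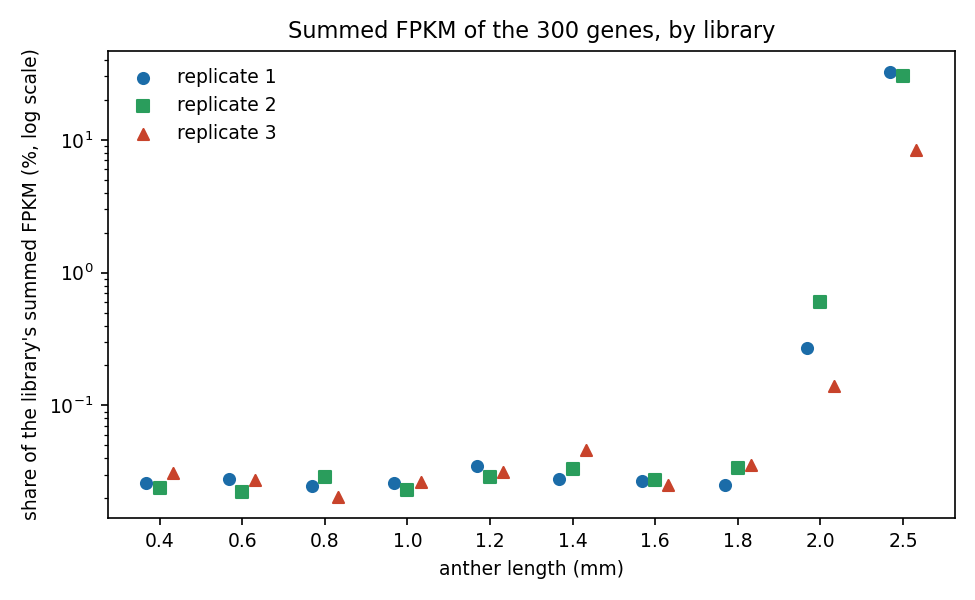
Share of all FPKM of a library held by the 300 genes, in percent on a log axis, for each of the 30 libraries by anther length in mm; each marker is 1 library and its shape gives the replicate. The 2.5 mm libraries stand at 32.4%, 30.4% and 8.42%, the 2.0 mm libraries between 0.141% and 0.607%, and all others at or under 0.0465%.

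The levels at 2.5 mm were uneven among the 300 genes. Their means over the 3 libraries ran from 17.1 to 2943 FPKM, with quartiles of 75.9, 179 and 544 FPKM. A mean of at least 100 FPKM was reached by 200 genes and one of at least 1000 FPKM by 46. The 10 highest genes held 18.5% of the members' FPKM at 2.5 mm, and the 30 highest held 44.2%, so a small number of very abundant transcripts made up much of the sum.

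Outside 2.5 mm most of the 300 genes were at or near the bottom of the scale. In all 27 libraries of shorter anthers, 113 genes stayed under 1 FPKM and 209 under 5 FPKM. Only 2 genes were listed at 0 in all 27 libraries. The number of members with at least 1 FPKM was 300, 300 and 248 in 2.5 mm replicates 1, 2 and 3, 107, 162 and 100 in the 2.0 mm libraries, and 23 to 53 in each of the other 24. The highest value of any member outside 2.5 mm was 311 FPKM, for OsKitaake04g078900.v3.1 in 2.0 mm replicate 2.

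**Figure D2:**
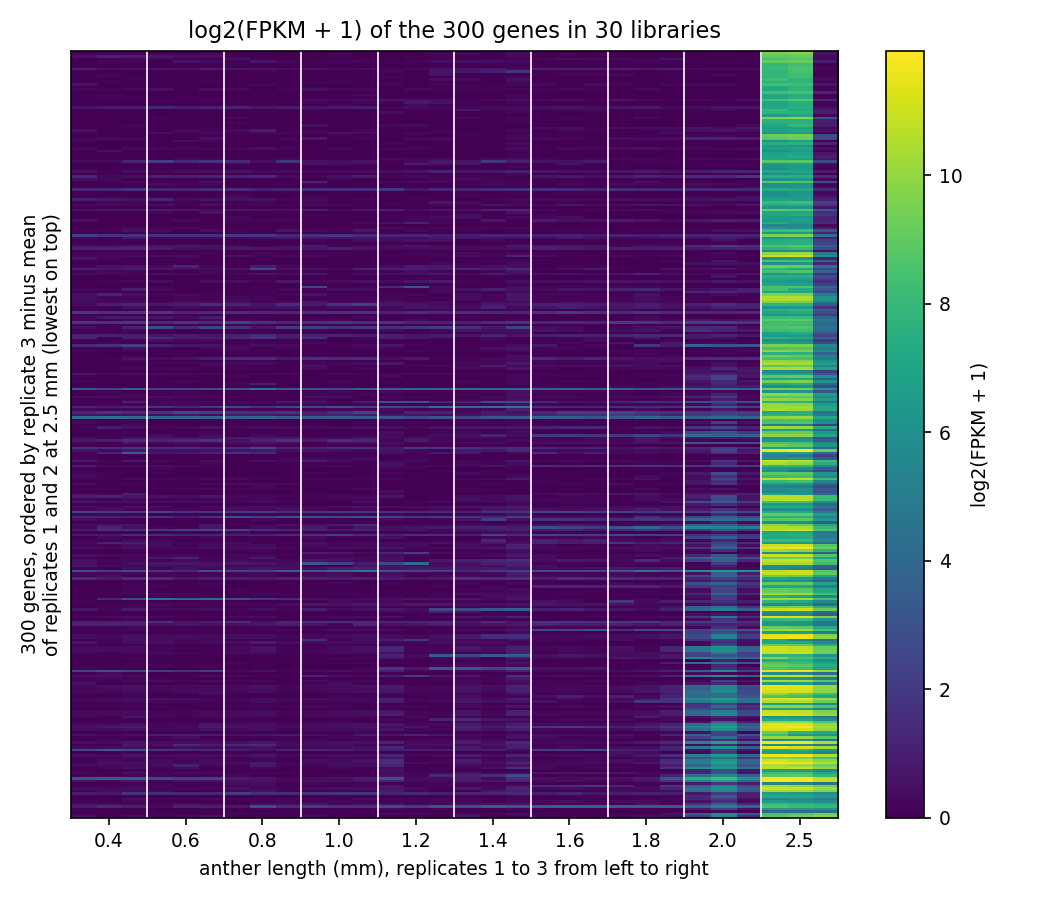
Level of each of the 300 genes (rows) in each of the 30 libraries (columns, by anther length in mm and replicate), as log2(FPKM + 1) by colour; rows are ordered by the difference of 2.5 mm replicate 3 from the mean of replicates 1 and 2, lowest on top. Replicates 1 and 2 are high in all rows, replicate 3 is low in the upper rows, and traces at 2.0 mm are seen mainly in the lower rows, where replicate 3 is high as well.

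The 2.5 mm replicates did not show these genes alike. Replicates 1 and 2 differed by a median of 0.176 on the log2(FPKM + 1) scale, whichever was higher, and 295 of the 300 genes lay within 1 of each other. Replicate 3 was the lowest of the 3 libraries for 297 genes and the highest for 3. Its difference from the mean of replicates 1 and 2 had a median of -2.79 and ranged from -8.83 to 0.88. It was at least 2 lower for 209 genes, or 69.7% of the members. For comparison, among the 11356 genes that averaged 5 FPKM or more at 2.5 mm the median difference was 0.59, and 4.86% of them were at least 2 lower in replicate 3. The members' values in replicate 3 entered the rule, so these figures are a description.

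In replicate 3, 52 of the 300 genes were under 1 FPKM, and 6 of these were listed at 0. In replicates 1 and 2 those 52 genes had between 41.6 and 926 FPKM, with medians of 131 and 162 FPKM. The gene furthest below was OsKitaake11g234200.v3.1, with 696, 926 and 0.762 FPKM in 2.5 mm replicates 1, 2 and 3 against 0.0336, 0.0725 and 0 FPKM in the 2.0 mm libraries. Next came OsKitaake04g154400.v3.1, with 643, 689 and 0.501 FPKM in the 2.5 mm libraries and 0.0984, 0.0199 and 0.0175 FPKM in the 2.0 mm libraries. For both genes, replicate 3 was close to the shorter anthers and replicates 1 and 2 were far from them.

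At the other end, OsKitaake07g083600.v3.1 had 408, 642 and 942 FPKM in 2.5 mm replicates 1, 2 and 3, against 3.88, 41.0 and 1.69 FPKM in the 2.0 mm libraries. OsKitaake08g114800.v3.1 had 348, 435 and 672 FPKM in the 2.5 mm libraries and 8.25, 50.8 and 7.78 FPKM in the 2.0 mm libraries. In these genes replicate 3 was the highest of all libraries, and 2.0 mm replicate 2 was the highest of the libraries outside 2.5 mm.

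**Figure D3:**
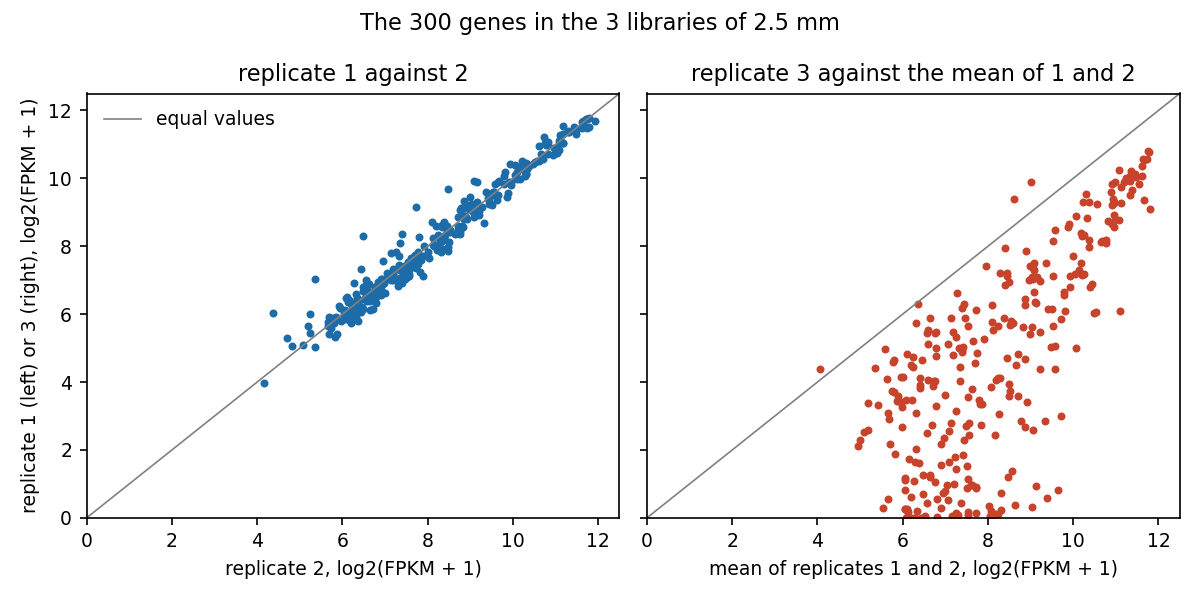
Levels of the 300 genes in the 2.5 mm libraries as log2(FPKM + 1), with replicate 1 against replicate 2 on the left and replicate 3 against the mean of replicates 1 and 2 on the right; each point is a gene and the line marks equal values. On the left 295 genes lie within 1 of the line, and on the right 209 genes lie at least 2 below it.

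The rule ties replicate 3 to 2.0 mm, since a gene with a low replicate 3 has a lower mean at 2.5 mm and could be kept only if its levels elsewhere, 2.0 mm included, were low. The values that follow are given with that limit. For the 49 genes at least 6 lower in replicate 3, the median level was 172, 208 and 0.287 FPKM in 2.5 mm replicates 1, 2 and 3, against medians of 0, 0.0096 and 0.0078 FPKM in the 2.0 mm libraries. For the 76 genes that were 1 to 2 lower, the medians were 592, 512 and 181 FPKM at 2.5 mm, against 3.83, 10.3 and 2.17 FPKM at 2.0 mm. The next highest length after 2.5 mm was 2.0 mm for 5 of the 49 genes and for 66 of the 76. A gene at the 2.5 mm medians of the 49 could not have been kept with the 2.0 mm medians of the 76, so nothing is read from this order.

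Over the 300 genes, the level in 2.0 mm replicate 2 had a Spearman correlation of 0.848 with the level in 2.5 mm replicate 3 and of 0.552 with the mean of 2.5 mm replicates 1 and 2. For 2.0 mm replicates 1 and 3 these were lower, at 0.696 and 0.668 with 2.5 mm replicate 3 and 0.441 and 0.447 with that mean. The 79 genes with at least 5 FPKM in 2.0 mm replicate 2 had a median difference of -1.58 between 2.5 mm replicate 3 and the mean of replicates 1 and 2. The other 221 genes had a median difference of -4.09. The same limit holds for these values. When the genes were chosen without 2.5 mm replicate 3, so that its level had no part in the choice, the level in 2.0 mm replicate 2 had a Spearman correlation over the 300 genes of 0.838 with 2.5 mm replicate 3 and of 0.621 with the mean of replicates 1 and 2. In that choice 2.0 mm replicates 1 and 3 had 0.68 and 0.644 with 2.5 mm replicate 3, and 0.505 and 0.492 with the mean. These are descriptions across genes of the same libraries, and genes are not independent replicates.

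To see the members in a library that had no part in choosing them, the rule was applied again without each 2.5 mm library in turn. The 27 libraries of shorter anthers still took part in the choice, so low levels there were selected. The shares of all genes given beside the counts are not those of genes chosen for low levels, and the counts are a description. Chosen without replicate 1, all 300 genes were above all 27 libraries of shorter anthers in replicate 1, as were 7.93% of all genes in the tables. Chosen without replicate 2, all 300 were above in replicate 2, against 8.04% of all genes. Chosen without replicate 3, 242 of 300 were above in replicate 3, against 7.74% of all genes. The genes chosen from replicates 1 and 2 alone had a median of 13.4 FPKM in replicate 3 and 220 FPKM in the others, and 230 of them were at least 2 lower there on the log2(FPKM + 1) scale. All 3 libraries of 2.5 mm were above all 27 others for 267 of the 300 members as chosen, and for 4.23% of all genes, a count that the rule itself favours. The choice of genes itself was less affected, since 275, 274 and 268 of the 300 were also chosen without replicate 1, 2 or 3.

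Gene by gene, replicate 3 was not low in every group of genes that set 2.5 mm anthers apart. The 260 genes high at 2.0 and 2.5 mm together, chosen by the same rule for that run, had medians of 32.0, 38.6 and 53.3 FPKM in 2.5 mm replicates 1, 2 and 3. Of these genes, 1 was at least 2 lower in replicate 3 and 14 were at least 2 higher. By their share of all FPKM, which was 15.1%, 14.8% and 11.6%, replicate 3 was nevertheless the lowest. The 300 genes with the largest gaps among the 1607 that were high from 0.4 to 2.0 mm and low at 2.5 mm had medians of 1.45, 1.89 and 6.33 FPKM in 2.5 mm replicates 1, 2 and 3, against 14.0, 14.4 and 16.1 FPKM in the 2.0 mm libraries. Replicate 3 was therefore between 2.0 mm and the other 2.5 mm libraries in the genes that are lost, as in most of the genes that are gained. Replicate 3 also lay between in its number of genes of at least 1 FPKM, which was 19918. Replicates 1 and 2 had 17391 and 17924 such genes, and the 2.0 mm libraries had 20532 to 20967. FPKM are shares, so a large share of a few genes can leave fewer other genes above 1 FPKM. This number is therefore not separate from the share of the genes high at 2.5 mm alone. Whether the anthers of replicate 3 were at another stage was not tested.

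Among the shorter anthers, the members were most often highest at 2.0 mm. This was the next highest length for 161 of the 300 genes, or 53.7%, and it was so for 59.9% of the 2487 genes of the tables that were highest at 2.5 mm with at least 5 FPKM there. Next came 1.4 mm with 50 genes, or 16.7% of the members against 7.24% of the 2487. For these 50 genes the median of the mean at 1.4 mm was only 0.26 on the log2(FPKM + 1) scale. The single highest library of the 27 was 2.0 mm replicate 2 for 140 members and 1.4 mm replicate 3 for 32. Among the 3 libraries of its own length, 2.0 mm replicate 2 was highest for 205 of all 300 members and 1.4 mm replicate 3 for 178. Among all genes averaging at least 1 FPKM at those lengths, the shares were 47.8% and 28.4%. Only 138 members at 2.0 mm and 33 at 1.4 mm averaged that much, so the members and all genes are not compared alike. At 2.0 mm the members' share of FPKM was largest in replicate 2, and at 1.4 mm most members were near the bottom of the scale.

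The step to 2.0 mm was compared with limma on log2(FPKM + 1), fitted to the 27 libraries of 0.4 to 2.0 mm so that no 2.5 mm value entered. The comparison asks whether these genes had begun to accumulate before 2.5 mm. A call required an adjusted p (Benjamini-Hochberg, over all genes tested) under 0.05 and a log2 fold change of at least 1. With no filter on low values, so that all 300 members were tested, 88 were higher at 2.0 mm than at 1.8 mm, against 2.82% of all genes, and 0 were lower, against 2.22% of all genes. On this scale a call lower needs about 1 FPKM or more at 1.8 mm. Only 34, 33 and 53 members reached that in 1.8 mm replicates 1, 2 and 3. The rule chose low levels there, so the lack of lower calls follows largely from the choice and is not read as a result. All genes include those not highest at 2.5 mm, and no share was taken over genes most like the members. The count higher therefore describes these members and shows no excess over like genes. At an unadjusted p under 0.05 in the same limma fit, 145 members were higher and 8 lower. The share of all genes at this threshold was not taken, so nothing is read from these counts. The median log2 fold change was 0.38 over the 300 members and 0 over all genes. All 3 libraries of 2.0 mm were above all 3 of 1.8 mm for 133 members, against 12.1% of all genes, and below for 15, against 13.9%.

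With the usual filter of at least 1 FPKM in at least 3 of the 27 libraries, 117 of the 300 members were tested and 183 were not. Of these 117, 72 were higher at 2.0 mm than at 1.8 mm, against 3.92% of the genes tested, and 0 were lower, against 3.31%. The limits on higher and on lower calls hold here too. In this limma fit 83 were higher and 1 lower at an unadjusted p under 0.05, again with no share of all genes to set beside them. However, 50 of the 117 passed the filter only through the 2.0 mm libraries and so had to be higher there. Among the 67 that passed without those libraries, 25 were higher and 0 lower. The share of all genes passing in the same way was not taken, so nothing is read from these counts. The count of members called with the filter was 47, 45 and 50 without 2.0 mm replicate 1, 2 or 3. Of all genes tested, 6.48%, 5.51% and 6.34% were called in these fits, in either direction. With no filter the count of members was 95, 69 and 100, against 4.95%, 4.23% and 4.87% of all genes.

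The largest called difference between 2.0 and 1.8 mm was that of OsKitaake04g078900.v3.1, which had 170, 311 and 70.5 FPKM at 2.0 mm and 0.440, 0.821 and 7.63 FPKM at 1.8 mm. In the fit with no filter its log2 fold change was 5.79 (SE 0.64, limma adjusted p = 2.2e-06). At 2.5 mm it had 3541, 3527 and 1762 FPKM, the highest mean of the 300 genes. It was also present in the shortest anthers, with 9.33, 10.3 and 9.84 FPKM at 0.4 mm, and was under 1 FPKM in all libraries of 0.8 and 1.0 mm.

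OsKitaake09g111100.v3.1 had 63.7, 86.0 and 19.5 FPKM at 2.0 mm and 0.169, 0.101 and 2.37 FPKM at 1.8 mm. This gave a log2 fold change of 4.90 in the fit with no filter (SE 0.44, limma adjusted p = 1.46e-07). In both genes every 2.0 mm library was above every 1.8 mm library, and 1.8 mm replicate 3 was the highest of its length.

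**Figure D4:**
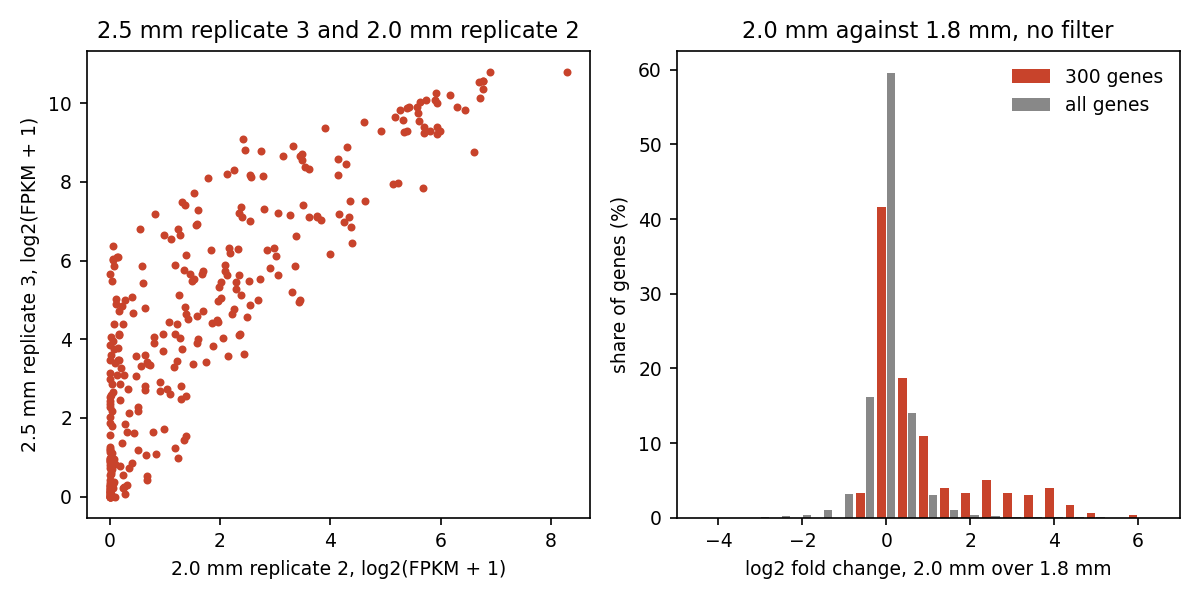
Difference between 2.0 and 1.8 mm as log2 fold change on the log2(FPKM + 1) scale from the limma fit with no filter on low values, as the percentage of the 300 members and of all 35594 genes in each interval. The members extend further to the right, with a median of 0.38 against 0 for all genes and 88 called higher.

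The contrast of 2.0 mm with 0.4 mm, the longest span outside 2.5 mm, gave a similar count. With no filter, 95 of the 300 members were higher at 2.0 mm, against 11.6% of all genes, and 1 was lower, against 13.5%. With or without the filter few members could be called lower. Only 25, 29 and 30 reached 1 FPKM in 0.4 mm replicates 1, 2 and 3. With the filter, 79 of the 117 tested were higher, against 16% of the genes tested, and 1 was lower, against 18.7%. Among the 67 members that passed without the 2.0 mm libraries, 32 were higher and 1 lower. Here too the share of all genes passing in the same way was not taken, and nothing is read from the counts. The counts higher are again set beside all genes and not beside genes highest at 2.5 mm. Both contrasts share the 2.0 mm libraries, so their counts are not independent of each other.

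Among the members called with the filter, the largest difference was that of OsKitaake06g243200.v3.1. It had 57.8, 104 and 21.4 FPKM at 2.0 mm and 0.115, 0.316 and 0.351 FPKM at 0.4 mm. In the fit with no filter its log2 fold change was 5.36 (SE 0.42, limma adjusted p = 1.79e-09). The single member called lower was OsKitaake02g002400.v3.1, with 0.497, 4.03 and 0.562 FPKM at 2.0 mm and 4.71, 9.65 and 5.71 FPKM at 0.4 mm. This gave a log2 fold change of -1.71 in the fit with no filter (SE 0.35, limma adjusted p = 0.000433). It had 158, 188 and 78.0 FPKM at 2.5 mm, so a gene chosen as high at 2.5 mm alone could still be present at a few FPKM in the youngest anthers.

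In the middle of the series, 1.6 mm was compared with 1.4 mm. With no filter, 8 of the 300 members were higher at 1.6 mm than at 1.4 mm, against 9.39% of all genes, and 9 were lower, against 5.7%. With the filter, 8 of 117 were higher, against 13.3% of the genes tested, and 8 were lower, against 8.02%. The rule chose genes for low levels at these lengths too, so a share of calls below that of all genes follows from the choice and is not read as a result. On this scale a log2 difference of 1 needs a level of about 1 FPKM or more at the higher length, and only 23 to 51 members reached that in each library of these lengths.

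The gene with the largest rise was OsKitaake12g228200.v3.1, with 5.16, 4.41 and 9.50 FPKM at 1.6 mm and 0.280, 0.294 and 0.576 FPKM at 1.4 mm. In the fit with no filter its log2 fold change was 2.36 (SE 0.27, limma adjusted p = 2.46e-06). It held 1.99 to 10.6 FPKM in the libraries of 1.8 and 2.0 mm and then had 1073, 1248 and 335 FPKM at 2.5 mm. This gene was thus present at a low level for several lengths before 2.5 mm.

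Lower at 1.6 mm was OsKitaake01g219700.v3.1, with 1.68, 1.47 and 1.33 FPKM at 1.6 mm and 16.9, 19.3 and 22.6 FPKM at 1.4 mm. In the fit with no filter its log2 fold change was -3.04 (SE 0.42, limma adjusted p = 1.82e-05). OsKitaake04g208800.v3.1 was lower as well, with 0.420, 0.429 and 0.583 FPKM at 1.6 mm and 9.38, 4.72 and 8.91 FPKM at 1.4 mm. This gave a log2 fold change of -2.51 in the fit with no filter (SE 0.38, limma adjusted p = 4.57e-05). Both genes had a first, much lower maximum around 1.4 mm before their maximum at 2.5 mm, and that first maximum was seen in all 3 libraries of 1.4 mm.

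Over all 9 lengths other than 2.5 mm, limma's moderated F test called 171 of the 300 members with no filter at an adjusted p under 0.05, against 68.4% of all genes. With the filter it called 106 of the 117 members tested, against 84.9% of the genes tested. As shares of the members these are 57% with no filter and 90.6% of those tested with it, below and above the shares of all genes. The rule kept genes that were low at every shorter length, which limits the calls with no filter, and the filter keeps the members that are higher at some length, so neither share is read as a result about the members.

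Some members lay next to each other in the list of gene IDs. A Kitaake ID carries the chromosome number and rises along the chromosome by the usual convention for such IDs, which was not checked against a genome here. By these numbers, 29 members were on chromosome 9, or 1.48% of its 1959 listed genes, and 10 were on chromosome 10, or 0.487% of its genes, against 0.843% over all chromosomes. Without a run of 13 neighbouring members described below, chromosome 9 held 16 members, or 0.817% of its genes. For 61 members, or 20.3%, the next or the previous listed ID was also a member, in 18 runs of 2 genes, 4 runs of 3 and 1 run of 13. In the 260 genes high at 2.0 and 2.5 mm this share was 9.62%, and in the 300 genes lost at 2.5 mm it was 7.0%. Without the run of 13 it was 16.7% of the other 287 members.

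The run of 13 comprised all listed IDs from OsKitaake09g093900.v3.1 to OsKitaake09g094200.v3.1 on chromosome 9, and it was singled out after its values were seen. Its genes had 779 to 3464 FPKM in 2.5 mm replicate 1, 742 to 3442 in replicate 2 and 353 to 1777 in replicate 3. In 2.0 mm replicates 1, 2 and 3 they had medians of 18.8, 58.4 and 7.36 FPKM, and in the 24 libraries of 0.4 to 1.8 mm the highest value was 2.54 FPKM. The 13 genes alone held 6.02%, 5.28% and 2.46% of all FPKM in 2.5 mm replicates 1, 2 and 3. All 13 were thus among the abundant transcripts at 2.5 mm and were already listed, at a much lower level, in every 2.0 mm library.

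A second block, also noticed after the values were seen, lay on chromosome 11, where 9 of 12 successive IDs were members. The 9 had 258 to 1069 FPKM in 2.5 mm replicate 1, 284 to 888 in replicate 2 and 76.2 to 163 in replicate 3, and at most 4.86 FPKM in any other library. The 3 genes between them that were not members had at most 0.0103 FPKM in any 2.5 mm library.

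The other block was on chromosome 6, with 7 members among 12 successive IDs. They had 58.0 to 2762 FPKM in 2.5 mm replicate 1, 53.8 to 2840 in replicate 2 and 2.69 to 1115 in replicate 3. The 5 genes of this block that were not members ran from 1 listed at 0 to 1 with 1053 FPKM in 2.5 mm replicate 1. Together the 29 members of the 3 blocks held 8.81%, 7.77% and 3.19% of all FPKM in 2.5 mm replicates 1, 2 and 3. Genes that neighbour each other can be near-identical copies, between which reads may be split. Their sequences were not examined here, so the level of a single gene within a block is uncertain, while the sum over a block is less affected.

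**Figure D5:**
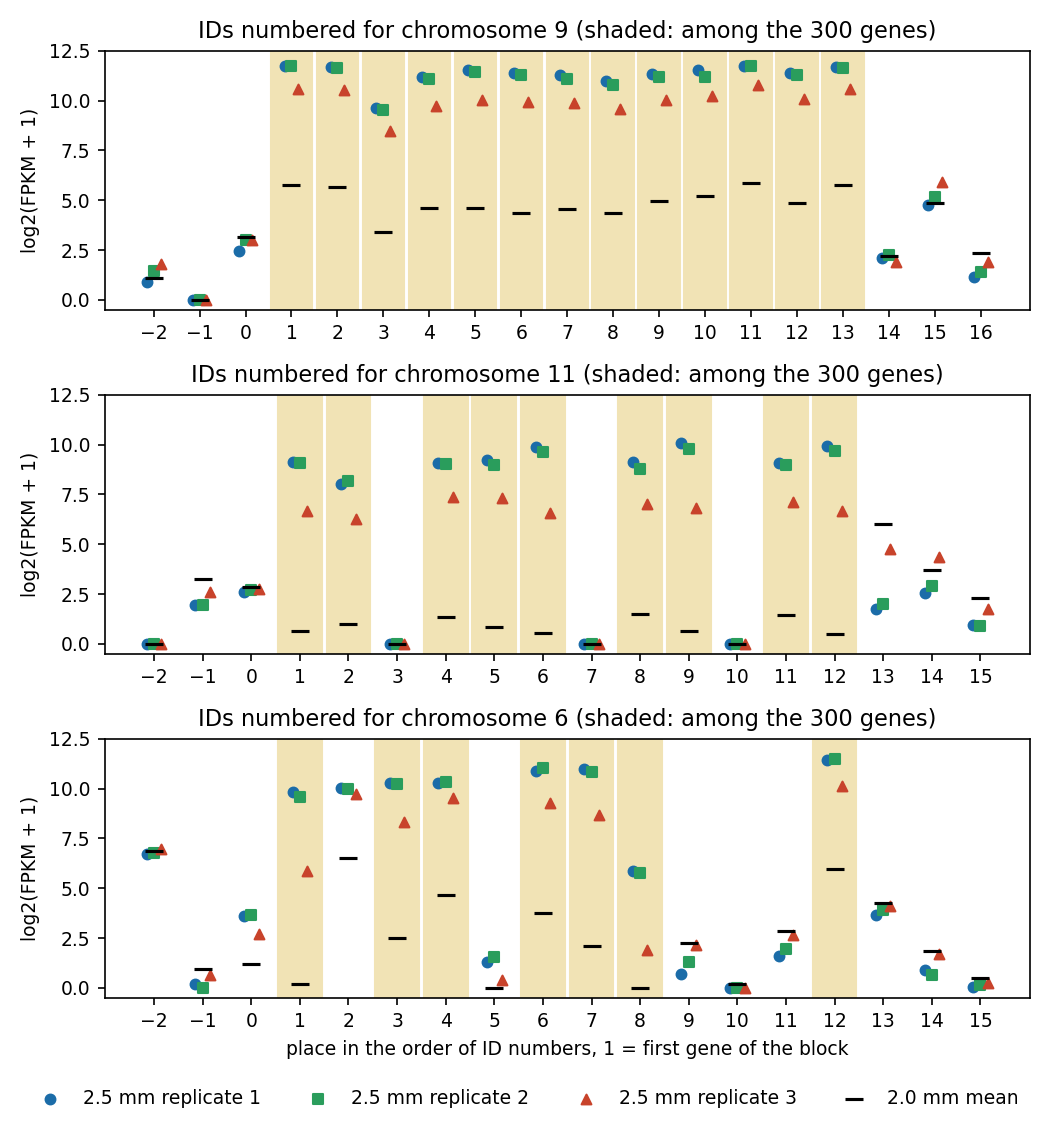
Levels as log2(FPKM + 1) along the order of gene IDs in 3 blocks of neighbouring IDs, on chromosomes 9, 11 and 6; markers are the 2.5 mm replicates, bars the 2.0 mm mean, and shading marks members. In the chromosome 9 block all 13 genes are members, while in the others 9 of 12 and 7 of 12 are.

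Most members were listed with a single transcript. This was so for 267 of the 300 genes, or 89.0%, and for 70.2% of the genes with at least 5 FPKM at 2.5 mm and 80.1% of all genes. The largest number of transcripts listed for a member was 8.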

How the data were processed

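The deposited tables gave FPKM per transcript for each of 30 mRNA libraries, and per the submitters' processing notes the tools used included HISAT2 2.1.1 and StringTie 2.1.4, among others named without a role. Libraries were poly(A)-selected and directional, per the labels' protocols. The genome build and read totals are not given in the sources used here, so depth and counting error are unknown. The 30 small RNA libraries were not used. FPKM of the 48494 transcript entries were summed to 35594 genes, and log2(FPKM + 1) was used throughout. Contrasts used limma 3.58.1 in R 4.3.3, with length as a factor of 9 levels, a mean-variance trend and no 2.5 mm library. They were fitted with no filter and with a filter of at least 1 FPKM in at least 3 libraries, as stated with each count. The fold change, SE and adjusted p of each named gene are from the fit with no filter. The gap rule and the limma fit with the filter were each tested on simulated data with known changes. For limma, the changed genes had higher levels than most members have in the shorter anthers, so low levels were not covered. Named genes are those with the largest gap, with the lowest and the highest difference of 2.5 mm replicate 3, and, per contrast, members called with the filter. Of these, the ones with the largest fold changes were taken whose groups did not overlap and whose higher group averaged 5 FPKM or more, at most 2 in each direction. The members, lists and tests were chosen with earlier results of these data known. Alternatives were other pseudocounts, scalings and filters, a replicate block, and leaving out libraries.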

Additional observations from a re-analysis of the deposited data

How the results depend on the processing

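Depth was unknown, so low FPKM carry an error that cannot be stated, and levels relative to the library total move with the few genes that dominate 2.5 mm. Under the alternatives tried, 852 to 1385 genes met the rule, the most after quantile normalization, and 258 to 300 of the 300 members were chosen again, the fewest with a pseudocount of 0.1. Of the genes chosen without 2.5 mm replicate 3, 224 to 242 were above all shorter libraries in it under the pseudocounts and scalings tried. With a pseudocount of 0.1, 27 members were called between 1.6 and 1.4 mm in place of 16. Of the genes tested, 28.4% were called in place of 21.3%. The F test called 171 members with no filter, and 130, 163 and 140 with no filter and without replicate 1, 2 or 3. The shares of all genes were 68.4%, 56.8%, 56.7% and 50.1%. Leaving out 1 library at a time gave 45 to 71 members called between 2.0 and 1.8 mm in place of 72, and leaving out 1 replicate number gave 61 to 72 in the F test in place of 106, where the filter also passed fewer members. In these fits 5.51% to 7.61% and 66.8% to 74.8% of the genes tested were called. Without 2.0 mm replicate 2 and 1.4 mm replicate 3 together, an alternative chosen after seeing the data, 40 members were called between 2.0 and 1.8 mm and 49 between 2.0 and 0.4 mm in place of 80. Of the genes tested, 5.53% and 34.8% were called there. No gene named in a contrast reversed or lost its call under the alternatives run. Whether replicate numbers pair the samples was not settled. In the contrasts checked, deviations of same-numbered libraries had correlations from -0.098 to 0.294. With a replicate block 72, 16, 80 and 107 members were called in the contrasts of 2.0 with 1.8 mm, 1.6 with 1.4 mm, 2.0 with 0.4 mm and in the F test. The shares of the genes tested were 7.21%, 21.3%, 34.8% and 84.6%.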
